A study of Homo sapiens with 6 samples.

Results

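The 78 genes described here carry the symbols of mitochondrial ribosomal proteins, taken as every gene whose symbol is MRPL or MRPS followed by a number and at most 1 letter. They are 78 of the 32917 genes in the deposited expression table, 49 with an MRPL symbol (named for the large subunit) and 29 with an MRPS symbol (named for the small subunit). The symbols do not always match the protein's place, as given below for MRPS18A, MRPS30 and MRPS36. Ribosomal proteins without such a symbol and 21 pseudogenes with MRP names were left out. The mitochondrial ribosome translates the few messenger RNAs of the mitochondrial genome, which code for subunits of the respiratory chain and of the ATP synthase. All of its proteins are encoded in the nucleus, made in the cytosol and imported, and while many descend from bacterial ribosomal proteins, others are found only in mitochondria. N6-methyladenosine (m6A) is a methyl mark that the METTL3 and METTL14 complex places on messenger RNA, often at sites with a GGAC core, where reader proteins that affect the stability and translation of the RNA can bind.

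The cells were Kasumi-1, a human line established from acute myeloid leukaemia and labelled wild type. They received CoCl2 (100 uM), which mimics hypoxia, and echinomycin (10 nM), an inhibitor of DNA binding by HIF-1, both for 24 hours. All 6 libraries, 3 of RNA pulled down with an m6A antibody (IP) and 3 of the RNA before the pulldown (input), came from this combined treatment of a single line, so every library carried both agents. The authors' deposited comparison sets the combined treatment against CoCl2 alone, and addresses what echinomycin adds to the hypoxia mimic. CoCl2 alone enters only through that comparison, since its libraries were not analysed here. Expression is given per gene and input library as FPKM, fragments scaled to transcript length and library size, so levels can be compared between genes. The design text gives the 3 inputs as biological replicates, and SDs are taken over them. Each m6A peak has 1 value in the authors' tables with no replicate values, and library depth is unknown. The 7 myeloid progenitor markers examined averaged 1.48 (CD33) to 56.2 FPKM (MPO), and of the epithelial, fibroblast, lymphoid and erythroid markers measured, EPCAM averaged 8.79 and CD3D 32.1 FPKM while the others lay between 0 and 0.859 FPKM.

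All 78 genes were expressed, each with a mean input FPKM of at least 1, and 65 reached 5 FPKM. Their median was 9.44 FPKM (quartiles 6.37 and 17.4), with library medians of 9.33, 9.33 and 9.54 FPKM, against 5.36 FPKM (quartiles 2.42 and 12.4) for the 12612 expressed genes. In bulk RNA, fewer cells holding a transcript and less RNA per cell cannot be told apart. The MRPL genes had a median of 10.4 FPKM and the MRPS genes of 8.27 FPKM. The lowest member still lay at percentile 13.2 of expressed genes.

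MRPL49, a mitochondria-specific protein of the large subunit, was the most abundant, at 61.1, 60.9 and 59.4 FPKM (60.5 ± 0.934, SD, n = 3). MRPL10, a protein of the flexible stalk that contacts translation factors, had 52.9, 57.1 and 54.9 FPKM (55.0 ± 2.08, SD, n = 3). The 3 libraries of MRPL49 all lay above the 3 of MRPL10, and both genes lay above every other member. MRPS16, a small-subunit protein with a bacterial homologue, had 38.4, 42.8 and 41.4 FPKM (40.8 ± 2.24, SD, n = 3). MRPL38, specific to the mitochondrial large subunit, had 37.2, 41.0 and 40.1 FPKM (39.4 ± 1.95, SD, n = 3). MRPS16, MRPL38, MRPL51 (36.7 ± 2.01 FPKM) and MRPS18B (35.9 ± 1.01 FPKM; SD, n = 3 each) overlapped from each to the next in this order.

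At the low end, MRPL42 had 1.62, 1.57 and 1.64 FPKM (1.61 ± 0.0360, SD, n = 3). MRPS28 had 1.75, 2.17 and 2.26 FPKM (2.06 ± 0.274, SD, n = 3). These 2 genes did not overlap, and the next in order, MRPL19, MRPL48, MRPL1 and MRPS6, averaged 2.38, 2.62, 2.77 and 2.93 FPKM. MRPL1, a homologue of the bacterial protein of the flexible L1 stalk, had 2.46, 3.33 and 2.52 FPKM, and so overlapped its neighbours in the order.

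The 2 subunits of the ribosome did not carry separate ranges of RNA level, and proteins that sit together in it differed. The stalk proteins MRPL10, MRPL11 and MRPL12 averaged 55.0, 10.8 and 11.0 FPKM. The 3 MRPS18 paralogs also differed: MRPS18B averaged 35.9 ± 1.01 FPKM, MRPS18A 17.6 ± 1.07 FPKM and MRPS18C 6.20 ± 0.112 FPKM (SD, n = 3 each), with no overlap between libraries. MRPS18A and MRPS30 carry small-subunit names but sit in the large subunit, and MRPS36 is a subunit of the alpha-ketoglutarate dehydrogenase complex (KGD4) rather than of the ribosome. MRPS36 averaged 4.98 FPKM and MRPS30 15.0 FPKM.

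**Figure D1:**
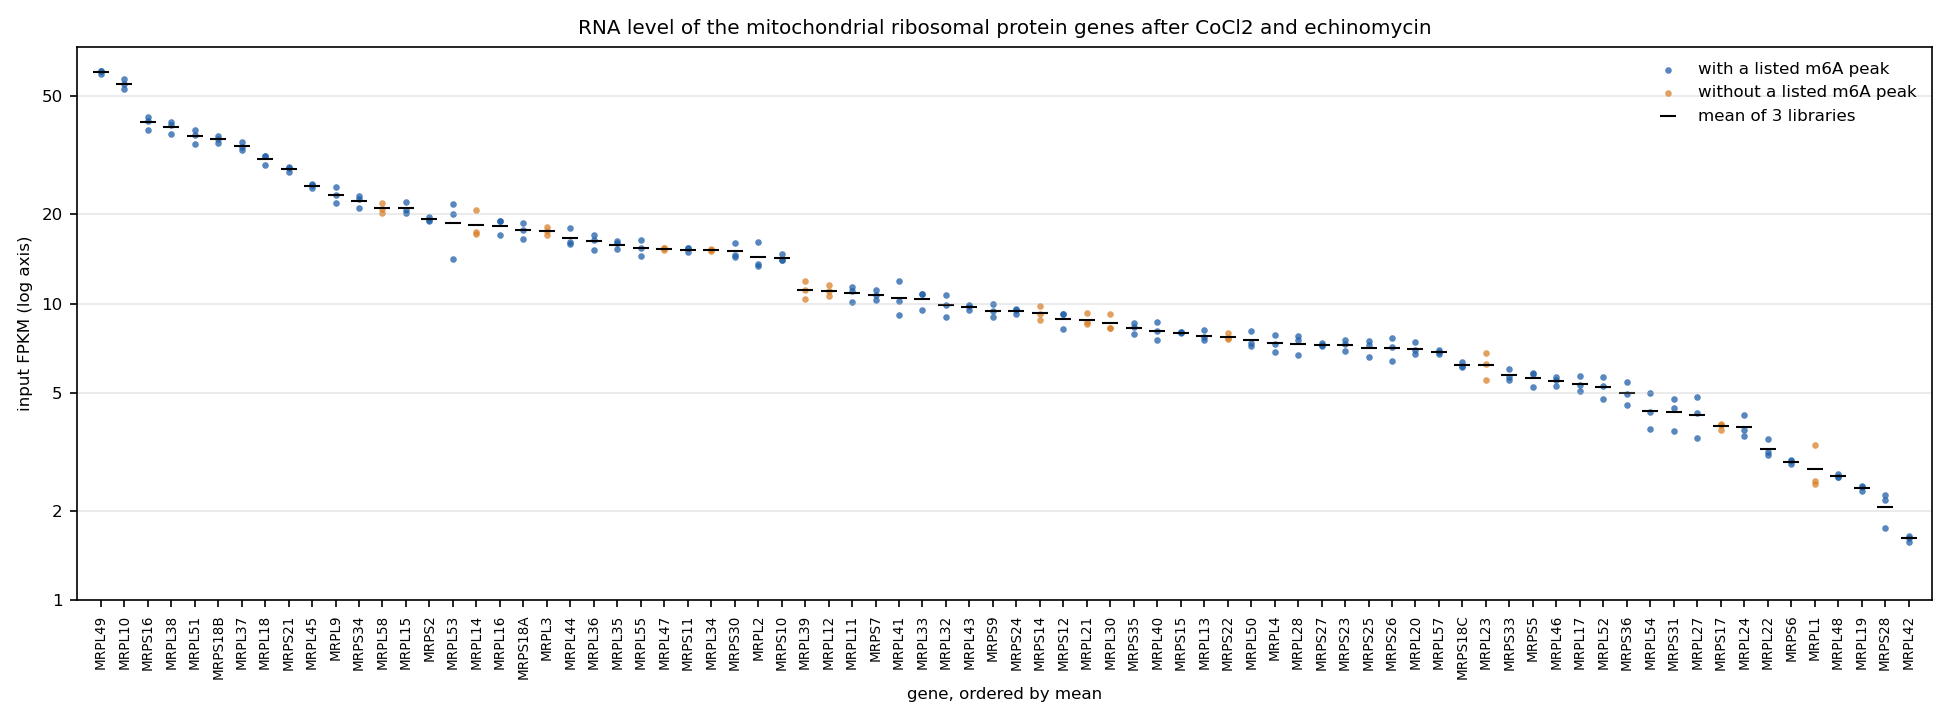
Input FPKM on a log axis for the 78 genes in each of 3 libraries of CoCl2 and echinomycin (points), with the mean as a bar, ordered by mean and coloured by whether the authors' peak list holds an m6A peak of the gene. Means run from 60.5 FPKM (MRPL49) to 1.61 FPKM (MRPL42), and the 14 genes without a listed peak lie between 21.0 and 2.77 FPKM.

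Replicate error was small. The median coefficient of variation over the 3 inputs was 5.06% (range 0.643 to 21.2%) for the members, against 6.06% for all expressed genes. The widest was that of MRPL53, at 14.2, 21.6 and 20.1 FPKM, where library 1 lay apart from the other 2. Library 1 was the lowest for 47 of the 78 members (60.3%), against 36.0% of all expressed genes.

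An m6A peak in the combined treatment (a listed peak) was present for 64 of the 78 members (82.1%, exact Clopper-Pearson 95% interval 71.7 to 89.8, counting error only), close to the 79.7% of all expressed genes. Cytosolic ribosomal protein genes had one in 50 of 81 (61.7%, interval 50.3 to 72.3), and nuclear genes for subunits of oxidative phosphorylation in 44 of 76 (57.9%, interval 46.0 to 69.1). The interval of the members meets that of the cytosolic ribosomal proteins and lies above that of the oxidative phosphorylation subunits. The intervals are a description, and no test of the differences was made. Among members, 38 of 49 MRPL genes and 26 of 29 MRPS genes had a listed peak. By role, it was 20 of 29 for large-subunit proteins with a bacterial homologue, 20 of 22 for large-subunit proteins specific to mitochondria, 14 of 16 for small-subunit proteins with a bacterial homologue and 9 of 10 for those specific to mitochondria.

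The 14 members without a listed peak had a median of 10.2 FPKM, against 9.44 FPKM for the 64 with one, and ran from 2.77 to 21.0 FPKM. MRPL58, a peptidyl-tRNA hydrolase built into the large subunit that can release stalled peptides, had 21.9, 20.9 and 20.2 FPKM and no listed peak. MRPL14 had 17.2, 17.5 and 20.8 FPKM, and MRPL3, whose bacterial homologue reaches towards the peptidyl transferase centre, had 18.2, 17.0 and 17.6 FPKM. Next came MRPL47 at 15.3, MRPL34 at 15.2 and MRPL39 at 11.1 FPKM on average. MRPL12, whose bacterial homologue recruits translation factors, had none at 11.0 FPKM, while its stalk partners MRPL10 and MRPL11 each had a single peak of low fold enrichment (2.12 and 1.63). The median gene span of members without a listed peak was 15300 bases, against 9459.5 bases for those with one, the opposite order to all expressed genes (5797 bases without and 27596 bases with a peak).

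The members had 117 of the 42634 listed peaks: 31 members had 1, 21 had 2 and 12 had 3 or more, up to 5 for MRPL38 and MRPS25. By the authors' annotation, 66 peaks (56.4%) lay in a 3′ UTR, 42 (35.9%) in a 5′ UTR and 9 (7.69%) in another exon, against 42.5%, 23.1% and 34.3% of all listed peaks. These labels do not always mark the end they name. A 5′ UTR peak of MRPL36 (chr5:1798385-1799137, minus strand) begins at the gene's last base. The MRPL38 peak starting at chr17:75900817 is labelled 3′ UTR when listed and exon when compared. Peaks lay only in the 3′ UTR for 25 members, only in the 5′ UTR for 18 and in both for 12, and the remaining members had a peak in another exon. Another gene's span lay under 47 of the 117 peaks, so their reads may not all belong to the member.

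Fold enrichment, IP over input, is the authors' own value per peak and carries no error here. It was lower over the members' peaks, with a median of 2.84 (quartiles 2.11 and 5.03), against 4.53 (quartiles 2.63 and 7.45) over all listed peaks. Taking each gene's highest peak, the median was 3.59 for the members (order-statistic 95% interval 2.87 to 5.03), against 6.38 for all expressed genes, 2.74 for cytosolic ribosomal proteins and 2.62 for oxidative phosphorylation subunits.

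MRPS12, a protein of the decoding centre, had the highest, 19.6, in its 3′ UTR (chr19:38932596-38933162, coordinates as the tables give them), and a second peak of 1.94 in its 5′ UTR. MRPS6 followed at 15.8, in a peak with only 61 exonic bases, and MRPL28 at 14.0 in a 5′ UTR peak at chr16:369395-369934. MRPL36, a small protein of the large subunit, had 11.2 in a 5′ UTR peak that passed the authors' FDR with a log10 FDR of only -1.94. MRPL27 had 10.8 in a 3′ UTR peak (chr17:50367857-50368455), and MRPL37 had 9.12 in its 3′ UTR. MRPL57 and MRPL43 had 8.57 and 8.47 in peaks labelled 5′ UTR. Most of the MRPL43 peak (chr10:100987397-100988745, minus strand) lies upstream of the gene's first base at 100987515. TWNK, the gene of the mitochondrial DNA helicase, also lies under that peak, so its reads may not all belong to MRPL43. The RNA levels of these 8 genes ran from 2.93 FPKM (MRPS6) to 33.9 FPKM (MRPL37).

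Because 42 of the members' 117 listed peaks were placed in a 5′ UTR, sequence around the transcript starts was examined. Not all of these peaks lie at a transcript start, as for MRPL36 above. RefSeq promoters of build GRCh38.p14 (250 bases before to 50 after the start) matched 69 of the 78 members. The build of the deposited tables is not named, but the table's spans of 77 of 77 matched members overlapped the RefSeq gene. A GGAC on the transcript strand within the first 50 transcribed bases was found for 13 of 69 members (18.8%), against 25.5% of expressed genes. CCGGAAG, the core bound by ETS factors, searched on both strands of the whole window, was found for 30 of 69 members (43.5%), against 24.5% of expressed genes, 12.2% of all promoters of the table, 35.9% of cytosolic ribosomal protein genes and 32.3% of oxidative phosphorylation genes. It was in 12 of 21 members whose peak rose and 9 of 25 whose peak fell. GCGCATGC, a form of the NRF1 site, was in 6 of 69 members (8.70%) and 6.76% of expressed genes, on either strand. A match is a description of the letters and not of a bound or methylated site. The following 30-base stretches lie under members' listed or compared 5′ UTR peaks and are shown 5′ to 3′ on the transcript strand with the motif in capitals (CTTCCGG is CCGGAAG on the other strand). The stretch of MRPL44 lies under its compared peak only, and its listed peak is labelled exon and starts further downstream. They carry the GGAC near the start in a member whose peak fell (MRPL44) and in 2 whose peaks rose (MRPL46, MRPL52), and the CCGGAAG matches of the member with the highest changed value (MRPL53) and of MRPL43. The first MRPL53 match begins 72 bases before the RefSeq start and that of MRPL43 18 bases before it.
MRPL44, chr2:223957483-223957512, plus strand: ggctggtaagattgctgcagcagGGACatc
MRPL46, chr15:88467342-88467371, minus strand: gcgcccgtaaggcGGACgctgttaggggtg
MRPL52, chr14:22829907-22829936, plus strand: ctcagcatggctgctttagGGACtgttctc
MRPL53, chr2:74472734-74472763, minus strand: gcagccggcggCCGGAAGtctatcccgcag
MRPL53, chr2:74472662-74472691, minus strand: ctgcacgagttCTTCCGGggcggaggtcac
MRPL43, chr10:100987497-100987526, minus strand: tcgtcccggaaCCGGAAGcctcgaggttta

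The comparison of CoCl2 and echinomycin with CoCl2 gave a log2 fold change of m6A enrichment for 86 peaks of 57 members. Here each gene is represented by its peak of lowest authors' p, and rose or fell means an authors' FDR under 0.05 for enrichment at that peak, not a change of RNA level. Changes below are log2 fold changes of the combined treatment over CoCl2, a direction that the table's name gives and the labels do not state. A compared peak was present for 57 of the 78 members, against 63.3% of expressed genes (by gene ID; the counts below take 1 peak per gene symbol). By the authors' deposited table, 24 of the 57 members rose and 27 fell, 51 in all, and 6 did not pass. Over all 11126 genes with a compared peak, 22.8% rose, 53.1% fell and 75.9% changed in either direction. Among the 7937 of these genes that were expressed, as every member was, 29% rose and 57.7% fell. The share of members that rose (42.1%) was above that of expressed genes and the share that fell (47.4%) below it, with no test of either difference. Among the 37 members whose peak has no other gene under it, 13 rose and 20 fell, with a median log2 fold change of -0.42. From the authors' deposited table, the members' median log2 fold change came to -0.23 (quartiles -0.66 and 0.61), against -0.45 for expressed genes and -0.50 for all genes. With a 2-fold limit as well, 6 of the 57 members rose and 5 fell (expressed genes 597 and 850 of 7937, all genes 6.5% and 13.5%). Counted over peaks, 34 of 86 rose and 39 fell (39.5% and 45.3%), against 23.1% and 45.8% of all 19983 compared peaks. No value between replicates is available for these peaks, so the authors' FDR could not be set against the spread between libraries.

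**Figure D2:**
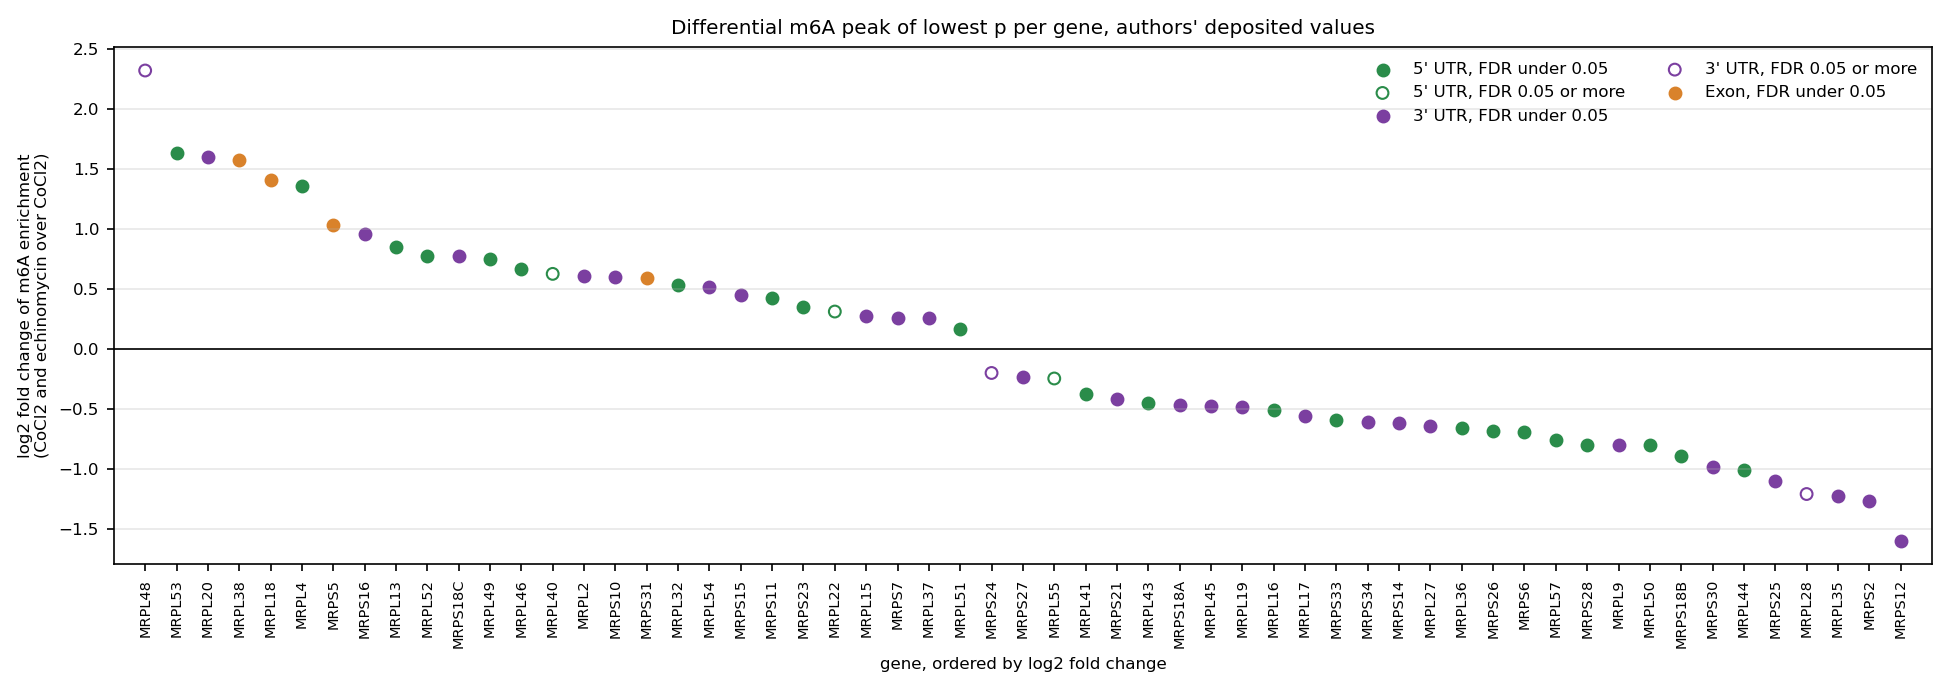
Log2 fold change of m6A enrichment, CoCl2 and echinomycin over CoCl2, for the peak of lowest p in each of 57 genes, from the authors' deposited table, ordered by value, coloured by the peak's annotated region and filled where the authors' FDR was under 0.05. Values run from 2.32 (MRPL48, not passing) to -1.60 (MRPS12), with 24 filled points above 0 and 27 below it.

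Among MRPL genes, 15 rose and 13 fell of 33 (median 0.26), and among MRPS genes 9 rose and 14 fell of 24 (median -0.44), in the authors' deposited table. These were 45.5% and 39.4% of the MRPL genes and 37.5% and 58.3% of the MRPS genes. Of expressed genes with a compared peak, 29% rose and 57.7% fell, so the MRPS share that fell was near that of expressed genes. Grouped by where the protein sits, 7 rose and 7 fell of 16 large-subunit proteins with a bacterial homologue, and 8 rose and 8 fell of 19 large-subunit proteins specific to mitochondria. Of small-subunit proteins with a bacterial homologue, 7 rose and 6 fell of 14, and of those specific to mitochondria 2 rose and 6 fell of 8. The difference between these groups was not tested, and neither subunit moved in a single direction.

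Large-subunit genes held 5 of the 6 highest values among members that changed. MRPL53, a mitochondria-specific protein, rose by 1.63 at a peak labelled 5′ UTR (authors' deposited table, log10 FDR -4.10). Most of that peak (chr2:74472606-74472872, minus strand) lies upstream of the gene's first base at 74472687. A peak of 60 exonic bases within the gene rose by 1.44 in the authors' deposited table (log10 FDR -1.48). AC005041 and CCDC142 also lie under both peaks. The 3′ UTR peak of MRPL20, whose homologue in Escherichia coli is needed early in large-subunit assembly, rose by 1.60 in the authors' deposited table (log10 FDR -7.86). That peak overlaps no listed peak of MRPL20. An exon peak of the gene, over a listed peak with a fold enrichment of 4.17, rose by 1.42. An exon peak of MRPL38 rose by 1.57 in the authors' deposited table (log10 FDR -9.50), at a fold enrichment of only 1.88, and AC087289 also lies under it. MRPL18, which in mammals helps bring 5S ribosomal RNA to mitochondria, rose by 1.41, MRPL4 by 1.36 and MRPL13 by 0.85 in the authors' deposited table. The MRPL13 peak covered only 61 exonic bases at a fold enrichment of 1.42, and AC011511 also lies under the MRPL4 peak. Of these genes, MRPL18 and MRPL38 were abundant (30.8 and 39.4 FPKM) and MRPL20, MRPL4 and MRPL13 near the members' median RNA level or below it (7.05, 7.33 and 7.79 FPKM).

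Large-subunit genes were also among the lowest. MRPL35, which has a bacterial homologue, fell by 1.23 at its 3′ UTR (log10 FDR -42.4) in the authors' deposited table. MRPL44, which has a ribonuclease III fold, fell by 1.01 over a peak that starts in the 5′ UTR (authors' deposited table, log10 FDR -52.5). MRPS30, a large-subunit protein despite its name, fell by 0.99 and the mitochondria-specific MRPL50 fell by 0.81 in the authors' deposited table (log10 FDR -38.7 and -21.8). Their RNA levels covered 7.55 FPKM (MRPL50) to 16.7 FPKM (MRPL44).

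In the small subunit, MRPS12 fell furthest, with a log2 fold change of -1.60 and a log10 FDR of -78.1 at its 3′ UTR in the authors' deposited table. It was also the member of highest fold enrichment, and its RNA level was 8.22, 9.22 and 9.20 FPKM. MRPS2, a small-subunit protein with a bacterial homologue, fell by 1.27 at its 3′ UTR with the lowest log10 FDR of all members, -88.4, in the authors' deposited table. Its RNA level was 19.2, 19.6 and 19.0 FPKM, and its listed peak had a fold enrichment of 1.69. MRPS25, specific to mitochondria, fell by 1.10 in the authors' deposited table, at a 3′ UTR peak under which NR2C2 also lies. That peak overlaps no listed peak of MRPS25. MRPS16 went the other way: it rose by 0.96 at its 3′ UTR with a log10 FDR of -74.0 in the authors' deposited table, over a region where DNAJC9-AS1 lies too.

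The 3 MRPS18 paralogs, which descend from a single bacterial protein and occupy different places in the ribosome, did not share a direction. In the counts by role, MRPS18A and MRPS18B were placed with the proteins specific to mitochondria, and MRPS18C with those that have a bacterial homologue. MRPS18C rose by 0.77, while MRPS18A fell by 0.46 and MRPS18B fell by 0.90 in the authors' deposited table. Another gene lies under each of these peaks (ABRAXAS1, RSPH9 and PPP1R10). None of the stalk proteins MRPL10, MRPL11 and MRPL12 had a compared peak, nor did MRPS36.

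The 6 members that did not pass were, by the authors' deposited table, MRPL48 at a log2 fold change of 2.32, MRPL40 at 0.63, MRPL22 at 0.31, MRPS24 at -0.20, MRPL55 at -0.25 and MRPL28 at -1.21. The peaks of MRPL48 and MRPL28 covered 61 exonic bases each, so a large value went with a short peak. MRPS14 was the single member with a compared peak (at -0.62 in log2 fold change by the authors' deposited table) and no listed peak. Conversely, 8 members had a listed peak and no compared peak.

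For 5 members, different peaks of the same gene changed in opposite directions. In MRPL35 the 3′ UTR peak of 628 exonic bases fell by 1.23 and another of 240 bases rose by 0.36 in the authors' deposited table. In MRPL17, a 3′ UTR peak of 505 bases fell by 0.56 and an exon peak of 209 bases rose by 0.99 in the authors' deposited table. MRPL38 had, beside its risen exon peak, 2 overlapping 3′ UTR peaks that each fell by 0.27 in the authors' deposited table. AC087289 also lies under all of these MRPL38 peaks. In these 3 genes the longer peak fell and the shorter one rose.

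MRPS5, a small-subunit protein with a bacterial homologue, rose at 2 internal exon peaks, by 1.03 and 0.88, and fell by 0.83 and 1.12 in the authors' deposited table at 2 overlapping peaks at its upstream end, under which ZNF514 lies. MRPS25 had 6 compared peaks in the authors' deposited table, of which 4 fell (log2 fold changes -1.37, -1.10, -0.50 and -0.17), 1 rose (0.84) and 1 did not pass (-0.49). All 6 lay over NR2C2 as well. The direction given for MRPS5 and MRPL17 therefore depends on which peak stands for the gene.

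The direction of change went with the strength of the peak, read from an overlapping listed peak of the same gene in 50 of the 57 members. Where several overlapped, the highest fold enrichment was taken. Of 8 members whose representative peak had a fold enrichment under 2, 7 rose and 1 fell in the authors' deposited table, the exception being MRPS2 (expressed genes in this range 57.5% and 25.2%). Between 2 and 3, 9 rose and 2 fell of 14 (expressed genes 55.2% and 27.5%), and between 3 and 5, 6 rose and 8 fell of 14 (expressed genes 37.6% and 49.1%) in the authors' deposited table. At 5 or more, 1 rose and 11 fell of 14, the member that rose being MRPL37 (0.26, authors' deposited table), against 13.02% and 78.8% of expressed genes. The compared peak of MRPL37 spans listed peaks of 1.95 and 9.12, and SSBP3 also lies under it. The share that rose was also smaller at higher enrichment in expressed genes, and these ranges were chosen after the values were seen.

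By peak length, the members' share that rose was smaller for longer peaks. Of 11 members with a peak under 200 exonic bases, 9 rose and none fell in the authors' deposited table (the other 2 did not pass). Of 18 with 200 to 500 bases, 9 rose and 6 fell, and of 28 with 500 bases or more, 6 rose and 21 fell. Expressed genes showed 45.6% and 9.66% under 200 bases, 52.3% and 28.4% from 200 to 500, and 13.8% and 82.1% at 500 or more, so their share that rose was highest in the middle range. Across the members, Spearman's rho with the log2 fold changes that the authors' deposited table gives was -0.557 for fold enrichment (50 genes), -0.532 for exonic bases (57 genes) and -0.0163 for input FPKM (57 genes). Over expressed genes the same 3 values were -0.334, -0.420 and 0.192, and over all genes -0.143, -0.311 and 0.199. These are correlations across genes of the same libraries, which are not independent replicates. Fold enrichment was measured in the combined treatment and so enters the fold change too, and enrichment and length went together (rho 0.667 in members). The median fold enrichment of the representative peak was 3.28 for members and 4.99 for expressed genes. The part of these measures in the members' share of rises was not tested.

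**Figure D3:**
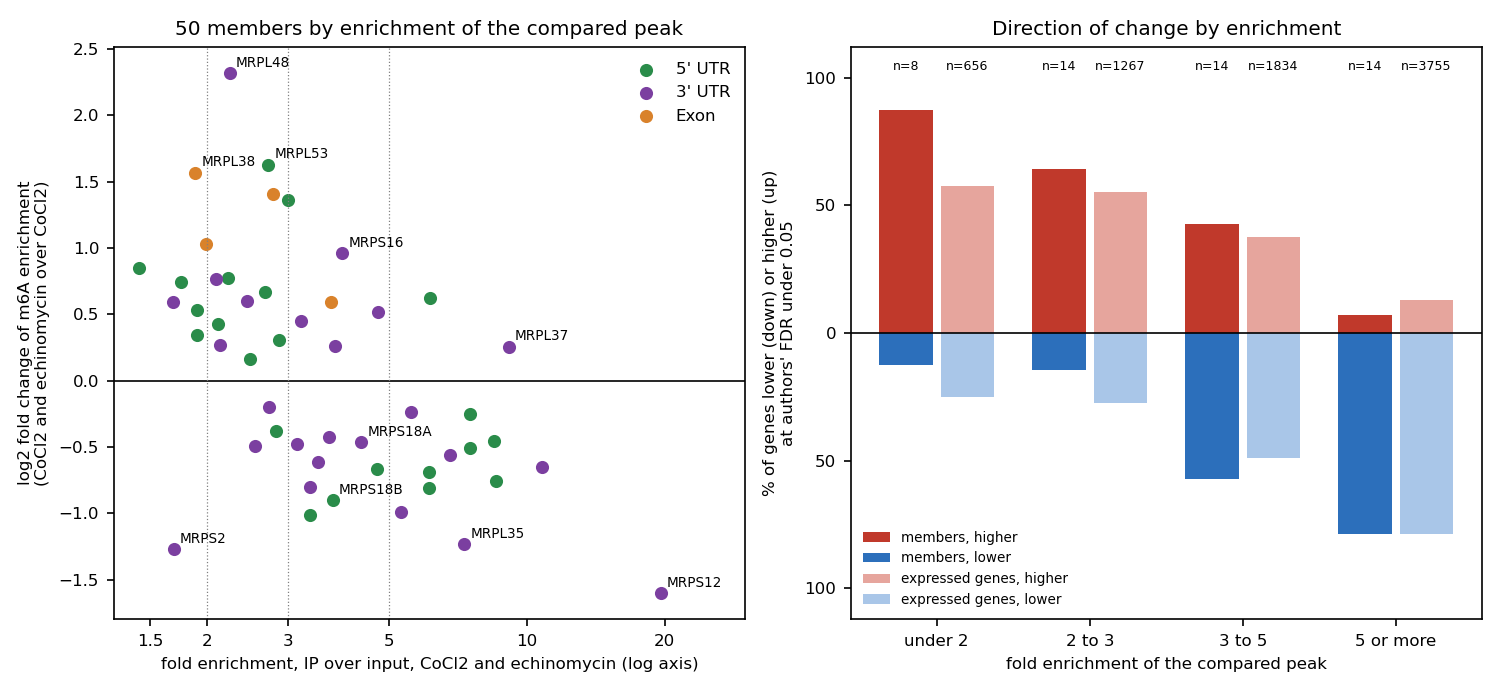
Left, fold enrichment of the compared peak in CoCl2 and echinomycin (log axis) against the log2 fold change over CoCl2 from the authors' deposited table for 50 members, coloured by region, with dotted lines at 2, 3 and 5. Fold enrichment is that of the highest overlapping listed peak of the gene. Right, the percent of members (dark) and of expressed genes (pale) that rose (up) or fell (down) in each range: 7 of 8 members rose under 2, and 11 of 14 fell at 5 or more.

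By region, 14 of the members' 48 compared 3′ UTR peaks rose and 26 fell (median log2 fold change -0.38), and 13 of 29 5′ UTR peaks rose and 12 fell (median 0.31) in the authors' deposited table. Of 9 exon peaks 7 rose and 1 fell (median 0.99), and the median over the members' compared exon peaks was 181 exonic bases, against 286 in 3′ UTRs. Over all genes, 22.9% rose and 53.7% fell in 3′ UTRs, 28.1% and 43.3% in 5′ UTRs, and 19.0% and 34.3% in exons. Region labels can differ between listed and compared peaks at the same locus, as for MRPL38.

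Other genes of mitochondrial translation were set beside the members. Of expressed genes with a compared peak, 29% rose and 57.7% fell. Of 3 mitoribosomal proteins without an MRP symbol and with a compared peak, DAP3, a small-subunit protein known from apoptosis, rose by 0.92, the RNA-binding PTCD3 rose by 0.68 and CHCHD1 fell by 1.36 in the authors' deposited table. GADD45GIP1, a large-subunit protein, had no listed peak at 21.4 FPKM. Among mitoribosome assembly factors, none of 16 rose and 13 fell (median -0.65) in the authors' deposited table, with MTG2, a GTPase of large-subunit assembly, at -0.84, the ribosomal RNA methyltransferase MRM2 at -0.69 and NOA1, a GTPase of ribosome assembly in mitochondria, at -0.98.

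Among mitochondrial aminoacyl-tRNA synthetases, which charge the transfer RNAs used by this ribosome, 1 rose and 8 fell of 10 (median -0.60) in the authors' deposited table, with PARS2 at -0.98. Of translation factors, 3 rose and 6 fell of 10 in the authors' deposited table, near the 29% and 57.7% of expressed genes. Those that fell included the translational activator gene TACO1 at -0.62, the release factor gene MTRF1L at -1.84 and the elongation factor gene TSFM at -0.86. Of genes for the mitochondrial RNA polymerase and RNA processing, 1 rose and 7 fell of 11 in the authors' deposited table, with TRMT10C, a subunit of mitochondrial ribonuclease P, at -1.34. By contrast 25 of 35 cytosolic ribosomal protein genes rose and 6 fell (median 0.56), and 15 of 27 oxidative phosphorylation genes rose and 8 fell (median 0.26) in the authors' deposited table. The share of members that rose lay between those of the cytosolic ribosomal and respiratory genes and those of the assembly factors and synthetases, and no test of these differences was made. The median length of the compared peak was 240 exonic bases for cytosolic ribosomal proteins, 324 for oxidative phosphorylation, 451 for members, 759 for assembly factors and 764.5 for synthetases. It was 329 bases for translation factors and 450 bases for RNA polymerase and processing genes, and the part of peak length in these differences was not tested.

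**Figure D4:**
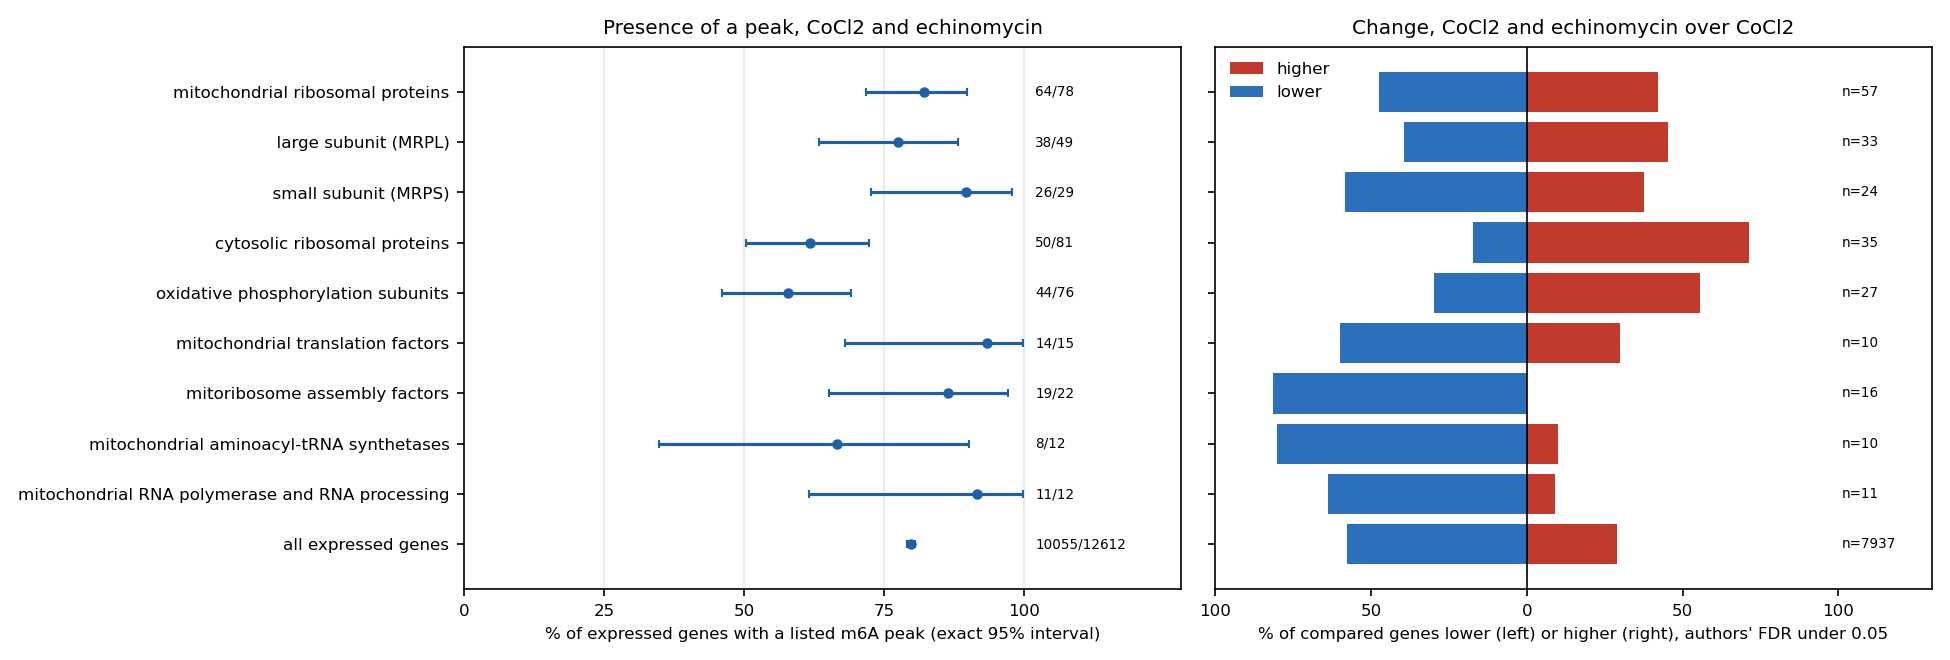
Left, percent of expressed genes with a listed m6A peak in CoCl2 and echinomycin with exact 95% intervals. Right, percent of genes with a compared peak that rose or fell against CoCl2 at an authors' FDR under 0.05 in the authors' deposited table, with the members (42.1% rose, 47.4% fell) and their subunits on top and expressed genes (29% and 57.7%) at the bottom.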

How the data were processed

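Methylated RNA immunoprecipitation sequencing of 3 IP and 3 input libraries was analysed from the authors' tables, and samples were grouped by their titles. FPKM per gene and input library was deposited by the authors, per the file headers, and 6 further per-sample columns were left unused. The authors' peak list gives fold enrichment as a ratio of IP over input, a p-value and log10 values read as a score. The authors' differential table gives a log2 fold change, a p-value and a log10 FDR read as a score, with 1 value per peak. The submitters' processing notes name ChIPseeker, HOMER, HISAT2 and fastp, without a role. Not given in the sources used here: the peak and differential callers, the build, the annotation and the pooling of replicates. Depth is unknown.

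The direction, combined treatment over CoCl2, was taken from the order of conditions in the differential table's name and is not stated in the labels. Of 49 compared peaks between -8 and -4 on the log2 scale, 3 overlapped a listed peak of the same gene by at least 1 base, against 61 of 68 between 4 and 10. Members were found by symbol, and a gene counted as expressed at a mean FPKM of 1. Changes were called at the authors' FDR under 0.05 with no test added. SDs of log2 values used a pseudocount of 1, and intervals are Clopper-Pearson or order-statistic at 95%. The members and lists were chosen with earlier results of these data known. Named members are the 6 highest and 6 lowest in FPKM, the 8 of highest enrichment, the 6 most abundant without a listed peak, the 8 highest and 8 lowest changed log2 fold changes, all with changes in both directions, the MRPS18 paralogs, the stalk proteins, MRPS30 and MRPS36. The members named for not passing, for sequences or as exceptions in a range were chosen after their values were seen, and other lists give up to 3 changed genes by lowest authors' p. Functions were tested on simulated data. Calculations used scipy 1.17.1, pandas 2.3.3 and numpy 2.4.6 in Python 3.11.15, and figures matplotlib 3.10.9.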

Additional observations from a re-analysis of the deposited data

How the results depend on the processing

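The counts of members that rose and fell (24 and 27 of 57) came to 6 and 5 with a 2-fold limit. Among the 37 members whose representative peak has no other gene under it, an alternative chosen after seeing the data, 13 rose and 20 fell, with a median log2 fold change of -0.42. Of expressed genes, with peaks over other genes kept, 29% rose and 57.7% fell, with a median of -0.45. Fewer members enter the count of 13 and 20. The other settings moved these counts by less than 1.5 times. With each gene's peak of highest absolute log2 fold change, MRPL17 turned to 0.99 and MRPS5 to -1.12 in the authors' deposited table, and the mean over peaks gave -0.0744 for MRPS5, since their peaks moved in opposite directions. By the same mean, MRPL17 came to -0.0217, MRPL35 to -0.44, MRPL38 to 0.34 and MRPS25 to -0.46. When each input library was left out in turn the median FPKM was 9.42 to 9.53. The share with a listed peak was 82.1% to 82.1%, which could not move and says nothing on stability, since the peak list is fixed and every member exceeds 1 FPKM. The share was 81.5% at a limit of 5 FPKM and 73.1% with a fold enrichment of at least 2. No paired analysis was possible because the peak tables hold no replicate values and FPKM is given for the inputs alone. Depth limits which peaks could be listed, and is unknown, so a member without a listed peak is not shown to lack m6A. The size of change under CoCl2 alone at the RNA level was not analysed here.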

Other observations

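Among the 21 pseudogenes left out, 3 averaged at least 1 FPKM. MRPS31P4 had 8.94, 6.76 and 8.01 FPKM and MRPS31P5 6.57, 6.13 and 5.14 FPKM, against 4.43, 4.75 and 3.73 FPKM for MRPS31, so both pseudogenes lay above their parent gene in all 3 libraries. Reads may be split among these near-identical copies, and the values of MRPS31, including its risen exon peak, are uncertain for that reason. MRPL45P2 averaged 1.11 FPKM, against 24.9 FPKM for MRPL45.

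MRPL46 and MRPS11 start 62 bases apart in opposite directions on chromosome 15, so that a large-subunit and a small-subunit gene share a promoter region. Their 5′ UTR peaks had fold enrichments of 2.67 and 2.11, and both rose, by 0.67 and 0.43 on the log2 scale in the authors' deposited table. AC013489 also lies under both peaks, so their reads may not all belong to these 2 genes. Their RNA levels differed, at 5.28, 5.51 and 5.63 FPKM for MRPL46 and 14.9, 15.4 and 15.4 FPKM for MRPS11. The pair was singled out after its values were seen.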
